A study of Mus musculus with 32 samples.

Results

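The response of cultured mouse cardiac fibroblasts to transforming growth factor beta (TGFb) was examined in cells that had received the recombinase iCre. By the genotype tag its target is Pkm, the gene of pyruvate kinase, and recombination there was not checked. The libraries were those titled iCre and TGFB (n = 4) and those titled iCre and SS (n = 4), which makes 8 of the 32 libraries of the series. The iCre TGFb cells had received TGFb at 10 ng/ml for 24 h, and the iCre SS cells had received no listed stimulus (SS is not spelled out in the labels, whose protocol speaks of serum starvation during treatment). Both groups were cardiac fibroblasts with the genotype C57BL/6J_Pkm2fl/fl, were transduced with iCre, a recombinase that cuts out DNA between loxP sites, and had been grown to passage 1 in medium with 10% fetal bovine serum and 20 ng/ml human bFGF. The labels state neither the vector nor the promoter that drives iCre. A change of the Pkm product from PKM2 to PKM1 is named in the title. Other libraries served for comparison: TGFb and SS libraries of cells transduced with LacZ (n = 4 each), iCre cells given interleukin-1 beta (IL-1b) at 15 ng/ml (n = 4), and iCre cells given basic fibroblast growth factor (bFGF) at 20 ng/ml (n = 4). Groups follow the titles, which the treatment tags of the iCre libraries match and those of the LacZ libraries contradict. The protocol text speaks of TAK1fl/fl mice, against the genotype tag.

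TGFb is secreted in a latent complex that is held in the matrix. Once released, it binds the type II receptor and then the type I receptor, which phosphorylates Smad2 and Smad3, and these enter the nucleus with Smad4. In the heart the pathway is known for turning resident fibroblasts into myofibroblasts, cells with smooth-muscle actin fibers that lay down collagen after injury. Pyruvate kinase makes pyruvate in the last step of glycolysis, and its M1 and M2 forms come from alternative exons of the same gene.

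Library totals were 25713233 to 32168835 counts in TGFb libraries and 24425678 to 30647026 in SS libraries. Libraries with the same replicate number deviated together from their group means (correlations of 0.386 to 0.683 over 12295 genes). For number 1 the correlation was no higher than the highest with another number (0.603 against 0.604). Numbers were treated as pairs, although what a number stands for is unstated in the labels. The p-values therefore measure only the spread between these samples, which may be technical. Number 4 stood apart: on a second principal component with 33% of the variance, the TGFb library of number 4 lay at -69.9 and its SS library at -35.6, against -21.4 to 49.5 for the other 6. Levels are CPM, counts relative to library sizes scaled by trimmed means (TMM), in the order of numbers 1 to 4, and log2 fold changes are TGFb against SS with standard errors.

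Pkm (ENSMUSG00000032294, chromosome 9, 59656368 to 59679375, GRCm38) had 994, 1126, 952 and 1355 CPM in TGFb libraries, against 550, 382, 777 and 425 CPM in SS libraries. The groups did not overlap, and number 3 had the smallest difference. The log2 fold change was 1.12 ± 0.19 (2.17-fold, adjusted p = 3.24e-05). Counts per gene do not separate PKM1 from PKM2, so they do not check the recombination. With LacZ the means were 1538 ± 160 CPM in TGFb libraries and 786 ± 247 CPM in SS libraries (SD, n = 4 each), and the response in iCre cells minus that in LacZ cells was 0.10 (95% interval -0.46 to 0.65). Map3k7, which encodes the kinase TAK1 named in the protocol text, averaged 123 ± 19.6 CPM in TGFb libraries and 112 ± 14.5 CPM in SS libraries (SD, n = 4 each; adjusted p = 0.106).

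TGFb changed about as many genes upward as downward. Of 16760 genes tested with edgeR's quasi-likelihood test, 4211 (25.1%) were higher and 4440 (26.5%) lower at an adjusted p under 0.05, together 51.6%. These shares are the background for every count of list members called against SS below. A further limit of 2-fold left 1059 (6.32%) higher and 1850 (11%) lower. Most changes were small, with a median of 1.52-fold among the higher genes and 1.79-fold among the lower ones. The split depends on the scaling: with total counts alone, 2512 genes were higher and 6574 lower, with the median of all genes at a log2 fold change of -0.26, against -0.04 with TMM. In 2754 genes (16.4%) the 4 TGFb libraries lay above the 4 SS libraries and in 2325 (13.9%) below them. Within numbers 1, 2, 3 and 4 the median log2 ratio of the higher genes was 0.68, 0.71, 0.51 and 0.43, a description only, since these genes were called from the same 4 pairs.

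The 12 largest rises among well-detected genes with separate groups were led by cartilage and secreted genes. Acan, the gene of the cartilage proteoglycan aggrecan (chromosome 7, 79053483 to 79115099), had 5.21, 54, 3.42 and 22.2 CPM in TGFb libraries, against 0.162, 0.112, 0 and 0 CPM in SS libraries. It was nearly absent from every SS library and differed widely among the TGFb libraries, with numbers 2 and 4 highest (log2 fold change 8.35 ± 0.82, adjusted p = 1.83e-08). C1qtnf3, which encodes a secreted protein of the C1q and tumor necrosis factor related family, had 4.36, 43.1, 3.88 and 1836 CPM in TGFb libraries, against 0, 0.149, 1.63 and 2.68 CPM in SS libraries. Its size rests on the number 4 library (7.30 ± 1.38, adjusted p = 0.000114). All 4 pairs were higher, but the rule for naming the rises required this.

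Several of the other rises encode signals. Il11, the cytokine interleukin-11, had 45.1, 72.8, 37.9 and 7.87 CPM in TGFb libraries, against 1.05, 1.16, 0.777 and 1.87 CPM in SS libraries (5.01 ± 0.61, adjusted p = 4.47e-07). Ccl17, a chemokine of T cells, had 55.4, 28.8, 47 and 4.08 CPM in TGFb libraries, against 0.688, 0.187, 0.74 and 0.0279 CPM in SS libraries. Ptgs2, the inducible cyclooxygenase COX-2, had 233, 369, 256 and 363 CPM in TGFb libraries, against 8.58, 5.22, 9.43 and 38.1 CPM in SS libraries. No library of one group reached the other in these genes, which the rule for naming them required. Only Ptgs2 was as high in number 4 as elsewhere. The log2 fold change was 6.32 ± 0.41 for Ccl17 and 4.73 ± 0.45 for Ptgs2. Another 5 were Slc39a2, a zinc transporter (6.25), Fgf21, a hormone induced by metabolic stress (6.03), Cdh6, a cadherin (6.03), Crabp2, which carries retinoic acid (5.74), and Rapgef4, a cyclic AMP sensor (4.83). Each had an adjusted p between 9.39e-11 and 3.91e-07, and each was lowest among TGFb libraries in number 4.

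**Figure D1:**
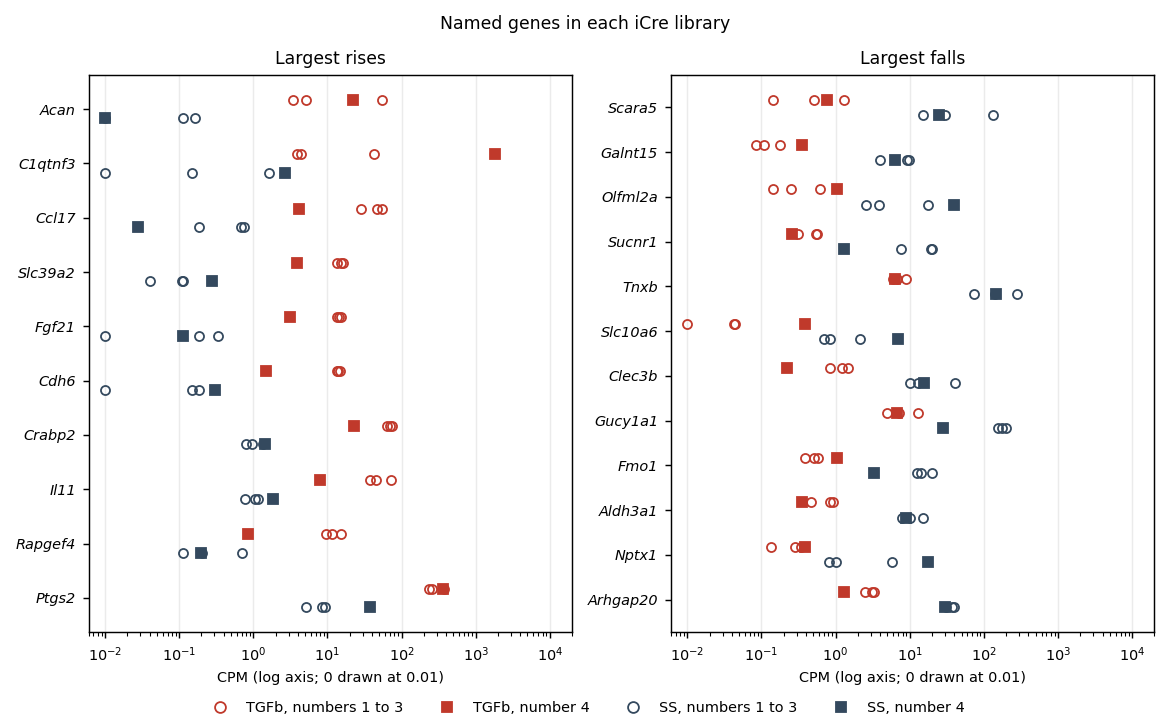
CPM on a log axis in each iCre library for 10 of the 12 largest rises (left) and the 12 largest falls (right), with TGFb libraries in red above SS libraries in dark blue and number 4 as filled squares. The groups do not overlap in any of the 22 genes, which the rule for naming them required, and the number 4 TGFb library is the lowest of its group in most of the rises and the highest for C1qtnf3 at 1836 CPM.

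The 12 largest falls were led by genes of resting fibroblasts and receptors. Scara5, a scavenger receptor that takes up ferritin (chromosome 14, 65666403 to 65764826), had 0.508, 1.29, 0.142 and 0.764 CPM in TGFb libraries, against 30.1, 134, 15 and 24.7 CPM in SS libraries (-6.06 ± 0.57, adjusted p = 1.03e-08). Tnxb, which encodes the matrix protein tenascin-X (chromosome 17, 34670535 to 34719815), had 6.64, 8.84, 5.94 and 6.24 CPM in TGFb libraries, against 142, 283, 74.7 and 146 CPM in SS libraries. Gucy1a1, a subunit of the nitric oxide receptor guanylate cyclase, had 7.11, 12.8, 4.95 and 6.75 CPM in TGFb libraries, against 175, 200, 156 and 27.9 CPM in SS libraries. The SS library of number 2 was the highest of its group in these 3 genes, and for Tnxb and Gucy1a1 the TGFb libraries lay closer together than the SS libraries. The log2 fold change was -4.45 ± 0.34 for Tnxb and -4.17 ± 0.58 for Gucy1a1. The other falls were Galnt15, a glycosyltransferase (-5.21), Olfml2a, an olfactomedin-like matrix protein (-4.72), Sucnr1, the succinate receptor (-4.57), Slc10a6, a transporter of steroid sulfates (-4.33), Clec3b, the gene of tetranectin (-4.27), Fmo1, a monooxygenase (-4.14), Aldh3a1, an aldehyde dehydrogenase (-4.00), Nptx1, a pentraxin (-4.00), and Arhgap20, a GTPase-activating protein (-3.89). Their adjusted p values ran from 2.69e-10 (Aldh3a1) to 0.000546 (Nptx1). In each of them 0 of 4 pairs were higher, which the rule for naming them required.

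The ligands and storage proteins of the pathway rose. Of 10 genes for TGFb ligands and their latency proteins, 7 were higher, 0 lower and 3 did not pass (median log2 fold change 1.00). Ltbp2, a latent TGFb binding protein relative that associates with elastic fibers, had 2573, 2594, 2540 and 3317 CPM in TGFb libraries, against 121, 137, 139 and 587 CPM in SS libraries (15.3-fold, adjusted p = 8.90e-09). Tgfb1, the ligand itself, had 133, 144, 135 and 55.5 CPM in TGFb libraries, against 39.9, 37.4, 34 and 36.3 CPM in SS libraries (3.04-fold, adjusted p = 2.23e-08). Number 4 was highest of the TGFb libraries for Ltbp2 and lowest for Tgfb1, and neither gene had overlapping groups. Inhba, which encodes the activin A subunit, was 4.41-fold higher, and Thbs1, thrombospondin-1, which can release TGFb from its latent complex, was 3.16-fold higher.

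Among receptors and receptor Smads more genes were lower than higher. Of 8 genes, 4 were lower, 1 higher and 3 did not pass (median -0.21). Without the replicate block 4 were lower and 0 higher, and without number 4 in all groups 3 were lower and 1 higher. Tgfbr3, the co-receptor betaglycan, had 6.31, 12.4, 9.08 and 61.2 CPM in TGFb libraries, against 44.5, 90.2, 37.7 and 333 CPM in SS libraries. Its 4 pairs all fell by similar ratios (-2.53 ± 0.33, adjusted p = 1.09e-06) around levels that were higher in number 4, so the groups overlapped. Smad3, the transducing Smad, was lower (-0.93 ± 0.15), as were Acvrl1, the type I receptor ALK1 (-1.02 ± 0.25), and Tgfbr2, the type II receptor (-0.38 ± 0.12). The Tgfbr2 call has an adjusted p of 0.00855, and it was 0.127 without number 4 in all groups and 0.061 without the SS library of number 4.

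Genes that damp the pathway rose with it. Of 11 feedback inhibitors 7 were higher, 0 lower and 4 did not pass (median 0.75), and with total counts 6 were higher and 2 lower. Pmepa1, a membrane protein that sequesters receptor Smads (chromosome 2, 173224458 to 173276533), had 1127, 1257, 1030 and 946 CPM in TGFb libraries, against 231, 235, 203 and 181 CPM in SS libraries (5.12-fold, adjusted p = 1.86e-11). Its ratio was nearly the same in the 4 numbers, 2.29 to 2.42 on the log2 scale. Skil, the repressor SnoN, was 3.4-fold higher, Ldlrad4, a relative of Pmepa1, 2.71-fold, and Spsb1, an adaptor that targets the type II receptor for degradation, 2.51-fold. Smad7, the inhibitory Smad, which was chosen after its values were seen, had 151, 139, 112 and 32.8 CPM in TGFb libraries, against 76.9, 52.5, 67.8 and 13.8 CPM in SS libraries. Every pair rose, but number 4 was low in both groups so that the groups overlapped (1.07 ± 0.23, adjusted p = 0.00053, and 0.143 without the block).

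The neighboring BMP and activin branch was split. Of 19 tested genes 9 were lower and 4 higher, against 26.5% and 25.1% of all genes, and without the block 6 and 2. Fstl3, a secreted binder of activin, had 386, 390, 319 and 133 CPM in TGFb libraries, against 45.1, 36.4, 45.9 and 14.7 CPM in SS libraries (8.72-fold, adjusted p = 2.96e-11). Bmp4, a BMP ligand, had 17.1, 14.9, 13.2 and 3.69 CPM in TGFb libraries, against 130, 86.5, 90.9 and 6.04 CPM in SS libraries (-2.40 ± 0.36, adjusted p = 6.18e-06). Bmp4 was already low in the SS library of number 4, where the difference was smallest. Bmp2, a second ligand, was lower (-2.54 ± 0.43), and so was Id2, a BMP-induced inhibitor of basic helix-loop-helix factors (-1.66 ± 0.27).

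Smooth-muscle contractile genes, which define the myofibroblast, rose as a group. Of 20 tested, 14 were higher, 11 of them at least 2-fold, 2 were lower and 4 did not pass (median 1.17). Their summed level was 17163, 16734, 14575 and 18248 CPM in TGFb libraries, against 5076, 4161, 5474 and 4622 CPM in SS libraries. Here number 4 was not low but highest among TGFb libraries. Tpm1, a tropomyosin that stabilizes actin filaments, had 1700, 1336, 1586 and 2533 CPM in TGFb libraries, against 352, 359, 381 and 851 CPM in SS libraries (3.87-fold, adjusted p = 3.00e-09). Actn1, the actin crosslinker alpha-actinin-1, rose 3.22-fold, Tagln2, transgelin-2, 4.13-fold, and Tpm2, a second tropomyosin, 2.74-fold. Acta2, the smooth-muscle actin by which myofibroblasts are usually scored (chromosome 19, 34241090 to 34255590), was chosen after its values were seen. It had 3537, 3984, 2514 and 5226 CPM in TGFb libraries, against 416, 319, 480 and 260 CPM in SS libraries (10.2-fold, adjusted p = 3.78e-05), with the widest gap in number 4. Myh11, the smooth-muscle myosin heavy chain, was also chosen so and had 1.78, 3.47, 1.5 and 18.6 CPM in TGFb libraries, against 15.9, 6.75, 15.4 and 1.2 CPM in SS libraries. It was lower with TGFb in 3 numbers and higher in number 4, and its adjusted p was 0.446. Without number 4 its log2 fold change was -2.46 (adjusted p = 0.00133).

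Serum response factor binds the CArG box (CC, 6 letters that are each A or T, then GG), a motif found at many contractile genes. RefSeq promoters (GRCm38.p6, windows of 300 bases around each gene's start) matched 12 of the 14 contractile genes that rose. A CArG box of exactly this form stood in the window of 3 of these 12, against 1.63% of all 32851 promoters in the table, searched on both strands. Near matches, such as ccctatatgg in the Acta2 window, were not counted, so a gene outside the 3 may still hold a variant box. The 3 are shown because they are the risen contractile genes with an exact match of the motif, which is in capitals. They were chosen for the motif and not by the rule for named genes, and are Myl9, the regulatory myosin light chain (chr2:156775214-156775513, plus strand), Cnn2, the calponin of non-muscle cells (chr10:79988350-79988649, plus strand), and Srf, serum response factor itself (chr17:46556113-46556412, minus strand).
Myl9: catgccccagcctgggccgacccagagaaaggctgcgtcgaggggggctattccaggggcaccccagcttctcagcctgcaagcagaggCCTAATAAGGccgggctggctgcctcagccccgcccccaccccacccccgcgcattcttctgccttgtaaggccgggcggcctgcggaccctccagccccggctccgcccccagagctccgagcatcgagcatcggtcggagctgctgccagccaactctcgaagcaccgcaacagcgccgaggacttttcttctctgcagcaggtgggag
Cnn2: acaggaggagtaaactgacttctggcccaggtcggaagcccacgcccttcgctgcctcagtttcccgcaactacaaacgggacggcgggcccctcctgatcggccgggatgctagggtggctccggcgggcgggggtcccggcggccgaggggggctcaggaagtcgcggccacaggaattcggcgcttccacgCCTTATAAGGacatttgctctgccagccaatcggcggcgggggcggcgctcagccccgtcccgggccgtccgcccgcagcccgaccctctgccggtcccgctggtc
Srf: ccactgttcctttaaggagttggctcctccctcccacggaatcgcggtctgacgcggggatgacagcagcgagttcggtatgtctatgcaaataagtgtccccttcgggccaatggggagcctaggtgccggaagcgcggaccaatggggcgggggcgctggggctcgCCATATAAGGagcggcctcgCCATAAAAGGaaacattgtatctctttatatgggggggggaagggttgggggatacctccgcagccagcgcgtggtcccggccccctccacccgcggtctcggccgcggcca
The motif begins 161 bases before the start in Myl9 and 56 before it in Cnn2, and Srf has 2 copies, 82 and 62 bases before it. Myl9 had 260, 312, 196 and 433 CPM in TGFb libraries, against 70, 80.2, 63.2 and 71.6 CPM in SS libraries (4.02-fold, adjusted p = 0.000546). Cnn2 had 656, 607, 569 and 737 CPM in TGFb libraries, against 278, 279, 301 and 340 CPM in SS libraries (2.14-fold, adjusted p = 0.00219). Srf had 60.9, 49.2, 51.9 and 33.5 CPM in TGFb libraries, against 25.2, 27.3, 31.4 and 29.6 CPM in SS libraries (1.7-fold, adjusted p = 0.00109). The groups did not overlap in any of the 3, and the SS libraries of each lay within a narrow range. Of the other motifs searched, CAGAC, the Smad element, was in the promoters of 6 of the 12 genes and in 49.6% of all promoters, and GGAATG, the TEAD element, in 5 of the 12 and in 14.7% of all promoters. RefSeq promoters matched 3 of the 7 feedback inhibitors that rose, of which 2 held CAGAC. These counts are of genes, where any promoter of a gene suffices, whereas the shares are of single promoters. The 12 contractile genes had 13 promoters and the 3 feedback inhibitors had 7.

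Fibrillar collagens changed in both directions, with 6 of 11 higher and 4 lower, and without the block 3 higher and 1 lower. Col1a1, the main chain of type I collagen, had 17439, 22156, 15136 and 22497 CPM in TGFb libraries, against 10031, 8965, 9778 and 4594 CPM in SS libraries (2.49-fold, adjusted p = 0.000275). Col5a2, a type V chain that nucleates type I fibrils, had 9505, 9069, 8418 and 11263 CPM in TGFb libraries, against 3757, 2770, 3751 and 2513 CPM in SS libraries (3.07-fold, adjusted p = 1.13e-06). The largest gap in both was in number 4. Col5a1 was 1.87-fold higher and the cartilage collagen Col2a1 5.82-fold higher, and without the block their adjusted p was 0.0505 and 0.0667. Col3a1, the chain of type III collagen, chosen after its values were seen, had 12016, 15400, 9065 and 11238 CPM in TGFb libraries, against 23548, 23486, 22475 and 8695 CPM in SS libraries. It was lower in numbers 1 to 3 and higher in number 4 (-0.65 ± 0.23, adjusted p = 0.0209, and 0.0909 without the block). Leaving out the TGFb library of number 1 or 3 or the SS library of number 3 also ended this call (adjusted p = 0.0739, 0.0758 and 0.0865).

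Among 21 other collagens 5 were higher and 8 lower, against 25.1% and 26.5% of all genes. With total counts 5 were higher and 11 lower, and without the block 4 and 5. Col6a1 and Col6a2, chains of the beaded type VI collagen, fell. Col6a1 had 579, 711, 501 and 560 CPM in TGFb libraries, against 1651, 1892, 1640 and 897 CPM in SS libraries (-1.33 ± 0.14, adjusted p = 4.04e-08), and the Col6a2 value was -1.29 ± 0.17. Col12a1, a collagen on the surface of fibrils, was 4.74-fold higher and Col7a1, the anchoring fibril collagen, 5.67-fold higher. The machinery that folds and crosslinks collagen rose more evenly. Of 20 such genes 13 were higher and 2 lower (median 0.87). Loxl3, a lysyl oxidase, had 548, 530, 525 and 288 CPM in TGFb libraries, against 145, 106, 168 and 101 CPM in SS libraries (3.61-fold, adjusted p = 2.73e-10). P3h1, a prolyl 3-hydroxylase, was 2.9-fold higher, Fkbp10, a collagen chaperone, 2.63-fold and Loxl4, another lysyl oxidase, 4.61-fold.

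Of 39 matrix glycoproteins and proteoglycans 20 were higher and 10 lower. Ccn4, a matricellular protein also known as Wisp1, had 593, 593, 489 and 211 CPM in TGFb libraries, against 29.5, 12.6, 33.7 and 30 CPM in SS libraries (18.6-fold, adjusted p = 1.41e-08). Prelp, a small leucine-rich protein of connective tissue, had 247, 230, 242 and 46.1 CPM in TGFb libraries, against 2032, 1307, 1710 and 296 CPM in SS libraries (-2.77 ± 0.25, adjusted p = 3.84e-09). The 4 pairs were alike in ratio for Prelp although number 4 was low in both groups. Eln, the gene of elastin (chromosome 5, 134702593 to 134747323), differed between numbers: it had 1824, 14270, 558 and 18011 CPM in TGFb libraries, against 352, 433, 240 and 129 CPM in SS libraries. Numbers 2 and 4 rose by 5.04 and 7.13 on the log2 scale and numbers 1 and 3 by 2.37 and 1.21 (all 4, 4.37 ± 0.86, adjusted p = 0.000183). Acan and C1qtnf3 were likewise highest in numbers 2 and 4. Ccn2, connective tissue growth factor, Postn, periostin, and Fn1, fibronectin, were chosen after their values were seen. Ccn2 had 6608, 5461, 5938 and 1099 CPM in TGFb libraries, against 761, 279, 756 and 131 CPM in SS libraries (10.2-fold, adjusted p = 1.58e-06). Postn was 2.84-fold higher (adjusted p = 0.000497, and 0.0716 without the block). Fn1 had 17767, 23653, 18008 and 7242 CPM in TGFb libraries, against 20346, 13723, 17367 and 6224 CPM in SS libraries, groups that overlap (adjusted p = 0.294).

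Of 29 genes that remodel matrix 12 were lower and 7 higher, against 26.5% and 25.1% of all genes, and without the block 7 were lower and 6 higher. Mmp2, gelatinase A, had 355, 503, 307 and 672 CPM in TGFb libraries, against 1061, 2041, 716 and 1816 CPM in SS libraries (-1.58 ± 0.12, adjusted p = 3.75e-10). Adamts5, which cleaves aggrecan, had 274, 217, 267 and 140 CPM in TGFb libraries, against 1181, 730, 1205 and 371 CPM in SS libraries (-1.87 ± 0.18, adjusted p = 1.22e-08). The metalloproteinase inhibitors Timp1 and Timp2 moved in opposite directions. Timp1 was 4.54-fold higher, with 2209, 1726, 2244 and 607 CPM in TGFb libraries, against 418, 252, 625 and 211 CPM in SS libraries, and the groups overlapped. Timp2 was lower (-1.07 ± 0.12).

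Of 27 focal adhesion and integrin genes 13 were higher and 5 lower, with total counts 8 and 6, and without the block 6 and 4. Itga5, the fibronectin receptor subunit (chromosome 15, 103344286 to 103366763), had 1084, 1001, 1015 and 384 CPM in TGFb libraries, against 111, 114, 126 and 134 CPM in SS libraries (6.96-fold, adjusted p = 4.58e-10). Palld, the actin organizer palladin, had 440, 467, 480 and 449 CPM in TGFb libraries, against 140, 119, 150 and 414 CPM in SS libraries (2.62-fold, adjusted p = 6.83e-06). In number 4 the SS library of Palld nearly reached the TGFb level. Flna, filamin A, was 2.06-fold higher and Fermt2, an integrin activator, 1.89-fold. Of 16 Hippo pathway genes and YAP targets 8 were higher and 3 lower. Ankrd1, a YAP target, had 1090, 619, 977 and 97.4 CPM in TGFb libraries, against 164, 95.3, 173 and 18.6 CPM in SS libraries (6.07-fold, adjusted p = 4.85e-06). Nuak2, a kinase induced by YAP, was 6.78-fold higher, Ajuba, a LIM protein that binds LATS, 2.27-fold, and Tead2, a partner of YAP, was lower (-0.69 ± 0.12, adjusted p = 4.63e-05, and 0.0808 without the block).

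**Figure D2:**
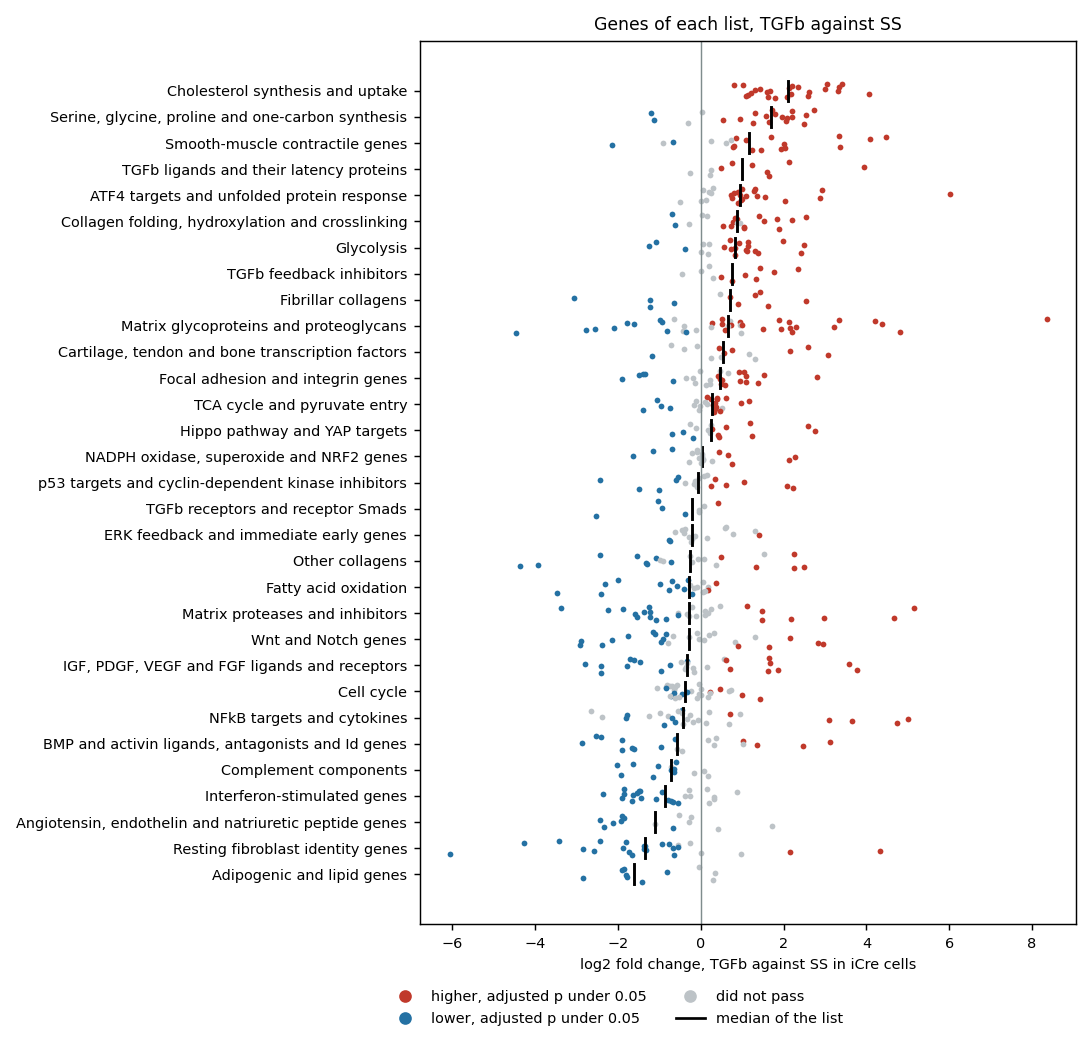
Log2 fold change of each tested gene of 31 lists, TGFb against SS in iCre cells, in red for genes higher at an adjusted p under 0.05, blue for lower and grey for those that did not pass, with the list median as a black bar. Cholesterol genes (median 2.10) stand highest and adipogenic genes (median -1.61) lowest, and the lists of matrix glycoproteins, collagens, proteases and growth factors reach far in both directions.

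Cholesterol synthesis and uptake was the list with the largest median, and the only 1 of the 31 in which every member rose: 24 of 24 were higher, 23 of them at least 2-fold (median 2.10, and 1.89 with total counts). Without the block 22 were higher. Fdps, which makes farnesyl diphosphate (chromosome 3, 89093588 to 89101959), had 84.3, 198, 55.2 and 206 CPM in TGFb libraries, against 5.54, 12.9, 7.25 and 30.1 CPM in SS libraries (10.2-fold, adjusted p = 2.19e-10). Cyp51, the lanosterol demethylase, had 137, 293, 94.8 and 221 CPM in TGFb libraries, against 11, 25.4, 11.8 and 52.7 CPM in SS libraries (8.26-fold, adjusted p = 5.72e-09). Numbers 2 and 4 were higher than numbers 1 and 3 in both groups, so the ratio varied less than the level. Nsdhl, a sterol dehydrogenase, was 4.53-fold higher. The summed level of the list was 1863, 3274, 1362 and 2777 CPM in TGFb libraries, against 320, 544, 320 and 922 CPM in SS libraries.

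Genes that make serine, glycine, proline and one-carbon units were next, with 16 of 20 higher, 14 of them at least 2-fold, and 2 lower (median 1.69). Psph, the last enzyme of serine synthesis (chromosome 5, 129765558 to 129787449), had 122, 87.2, 86.9 and 31.4 CPM in TGFb libraries, against 21.2, 12.8, 23.5 and 10.4 CPM in SS libraries (4.64-fold, adjusted p = 1.98e-10). Shmt2, which turns serine into glycine in mitochondria, had 276, 240, 208 and 127 CPM in TGFb libraries, against 59.3, 42.8, 71.2 and 30.6 CPM in SS libraries (4.21-fold, adjusted p = 4.25e-09). Both were lowest in number 4 in both groups. Slc3a2, the heavy chain of amino acid transporters, was 2.41-fold higher, and Glul, glutamine synthetase, was lower (-1.21 ± 0.12).

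ATF4 targets and genes of the unfolded protein response, which respond to amino acid shortage and to load on the endoplasmic reticulum, had 18 of 25 higher, 0 lower and 7 that did not pass (median 0.95). Nupr1, a small stress-induced nuclear protein, had 906, 676, 681 and 391 CPM in TGFb libraries, against 133, 97, 117 and 36.8 CPM in SS libraries (7.35-fold, adjusted p = 3.60e-11). Hspa5, the chaperone BiP, had 2551, 2253, 2043 and 1662 CPM in TGFb libraries, against 882, 748, 985 and 689 CPM in SS libraries (2.56-fold, adjusted p = 3.85e-10). Manf, a secreted protein of the endoplasmic reticulum, was 2.93-fold higher.

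Glycolysis genes rose, with 15 of 22 higher, Pkm among them, and 3 lower (median 0.83). Hk2, the inducible hexokinase, had 161, 159, 124 and 52.9 CPM in TGFb libraries, against 20.3, 13.5, 29.6 and 25 CPM in SS libraries (5.64-fold, adjusted p = 3.90e-07). Slc2a1, the glucose transporter GLUT1, was 2.6-fold higher and Gapdh 1.9-fold. Eno2, the neuronal enolase, was lower (-1.08 ± 0.16), a call that depends on the block (adjusted p = 0.161 without it). The TCA cycle and pyruvate entry list had 13 of 24 higher and 4 lower, most by little, and with total counts 4 higher and 8 lower. Mdh2, malate dehydrogenase, had 326, 284, 295 and 217 CPM in TGFb libraries, against 141, 131, 154 and 142 CPM in SS libraries (1.96-fold, adjusted p = 3.10e-09). Idh3a, an isocitrate dehydrogenase subunit, was 2.23-fold and Cs, citrate synthase, 1.53-fold higher. Pcx, pyruvate carboxylase, had 15.1, 16.6, 18.8 and 24.6 CPM in TGFb libraries, against 34.3, 34.7, 37 and 39.1 CPM in SS libraries, and was lower in every pair (-0.96 ± 0.11, adjusted p = 9.74e-08).

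Fatty acid oxidation was lower, with 11 of 20 genes lower and 2 higher. Acaa2, a mitochondrial thiolase, had 18.5, 17.6, 17.7 and 45 CPM in TGFb libraries, against 83, 131, 58.2 and 106 CPM in SS libraries (-1.99 ± 0.21, adjusted p = 4.44e-08). Cpt1a, which brings fatty acids into mitochondria, was lower (-0.99 ± 0.12), as was Cd36, a fatty acid transporter, at 0.222 to 2.6 CPM in TGFb libraries and 2.05 to 8.77 CPM in SS libraries (-2.32 ± 0.33). Acadvl, the very long chain acyl-CoA dehydrogenase, was 1.28-fold higher, and with total counts its adjusted p was 0.113.

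Genes of resting fibroblast identity fell as a group, with 19 of 25 lower, 14 of them at least 2-fold, and 2 higher (median -1.34). The list was chosen with earlier results of these data known. Gsn, the actin-severing protein gelsolin, had 1073, 922, 790 and 830 CPM in TGFb libraries, against 3798, 5169, 2540 and 2329 CPM in SS libraries (-1.87 ± 0.12, adjusted p = 3.60e-11). Abca8a, a lipid transporter, had 17.8, 24.9, 13.2 and 5.96 CPM in TGFb libraries, against 198, 188, 161 and 88.3 CPM in SS libraries (-3.43 ± 0.28, adjusted p = 1.66e-09). Dpt, the matrix protein dermatopontin, fell by less (-1.34 ± 0.11). Of 10 tested adipogenic genes 7 were lower and 0 higher. Lpl, lipoprotein lipase, had 28.9, 22.2, 32.5 and 11 CPM in TGFb libraries, against 211, 202, 189 and 76.8 CPM in SS libraries (-2.84 ± 0.21, adjusted p = 1.96e-10). Pparg, the adipocyte regulator, was lower (-1.42 ± 0.21), and so was Klf15, a metabolic transcription factor (-1.79 ± 0.20).

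The fibroblast label was checked against 10 fibroblast markers, all of which were detected and summed to 40355 to 56051 CPM in TGFb libraries and 23787 to 51101 CPM in SS libraries. Of them 6 were lower and 2 higher with TGFb, including Pdgfra, the PDGF receptor alpha (122, 177, 135 and 525 CPM in TGFb libraries, against 496, 748, 421 and 1257 CPM in SS libraries), and Tcf21, a cardiac fibroblast transcription factor (46, 43.8, 35.7 and 15.9 CPM in TGFb libraries, against 180, 138, 160 and 22.6 CPM in SS libraries). Ddr2, a collagen receptor, and Lum, lumican, were lower too (-0.76 and -2.10). Most of each sum came from the collagen genes Col1a1 and Col3a1, so the sums say little about the other markers. In bulk RNA, fewer cells of a type and less RNA per cell cannot be told apart.

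Markers of other cells were at several levels, with mural markers highest at 765 to 1903 CPM in TGFb libraries and 718 to 1278 CPM in SS libraries. Bulk counts do not tell which cells made this RNA, so such sums do not measure the share of a cell type. Leukocyte markers summed to 247, 75.1, 559 and 38.9 CPM in TGFb libraries, against 343, 109, 759 and 69.5 CPM in SS libraries, lower in every pair, with Cd3e at 0 throughout. Of 12 tested 9 were lower, among them Ptprc, the pan-leukocyte CD45 (-0.91), Adgre1, a macrophage marker (-0.72), Cd68 (-0.94) and the lysozyme Lyz2 (-0.59). Without the block edgeR called 0 of the 12, with 0 at an unadjusted p under 0.05 and adjusted p values from 0.357 to 0.726 for these 4, while DESeq2, which kept the block, called 10 of 12. The part of leukocytes in the falls of the interferon-stimulated and complement genes was not tested. Cardiomyocyte markers summed to 8.13 to 10.3 CPM in TGFb libraries and 22.5 to 92.4 CPM in SS libraries, with 6 of 10 too low to test. Tnnt2, cardiac troponin T, was lower (-2.33 ± 0.54), while the other 3 tested did not pass. Of 8 endothelial markers Erg, an ETS factor, was higher, with 1.31, 17.4, 0.712 and 26.8 CPM in TGFb libraries, against 0.121, 0.597, 0.259 and 1.06 CPM in SS libraries (16.5-fold, adjusted p = 1.39e-07), highest in numbers 2 and 4 as was Eln. Tek, the angiopoietin receptor, and Vwf, von Willebrand factor, were lower (-1.74 and -1.44). The Vwf call was lost without number 1 in all groups (adjusted p = 0.053). In edgeR fits of the compared groups alone it was lost with the block (adjusted p = 0.0605) and without it (0.0601). Of 9 mural markers the proteoglycan Cspg4 (5.67-fold) and the adhesion molecule Mcam (2.77-fold, adjusted p = 0.0161, 0.124 without the block, and 0.0744 and 0.0534 without the SS library of number 2 or 4) were higher, and the receptor Notch3 and desmin, Des, were lower (-2.15 and -1.31). The Des call (adjusted p = 0.0307) was lost without the TGFb library of number 1, 2 or 3 or the SS library of number 3 or 4 (adjusted p = 0.0548 to 0.0883) and with the looser filter (0.0508). Schwann markers summed to 3.66 to 12.5 CPM in TGFb libraries and 5.56 to 17.6 CPM in SS libraries, with Cdh19 and S100b lower (-1.07 and -0.68, adjusted p = 0.05 and 0.343 without the block). The S100b call was also lost without any 1 of numbers 1 to 3 of either group (adjusted p = 0.0514 to 0.0895). Mesothelial markers summed to 5.12 to 12 CPM in TGFb libraries and 10 to 15.9 CPM in SS libraries, with Upk3b and Lrrn4 lower (-1.33 and -1.27), Lrrn4 having an adjusted p of 0.188 without the block and of 0.0606 to 0.119 without number 1 or 2 of either group.

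Cytokine genes and NFkB targets had 5 of 27 higher and 6 lower, against 25.1% and 26.5% of all genes. Another 16 did not pass, and the median log2 fold change was -0.43. Lif, of the interleukin-6 family, had 143, 86.3, 128 and 16.3 CPM in TGFb libraries, against 6.11, 5.34, 9.17 and 6.48 CPM in SS libraries (12.6-fold, adjusted p = 1.64e-08). Il6 itself had 39.1, 65.5, 34.8 and 5.67 CPM in TGFb libraries, against 5.5, 3.47, 6.21 and 1.06 CPM in SS libraries (8.54-fold, adjusted p = 2.81e-06). With Il11, 3 ligands of this family were among the 4 cytokine genes named, all highest in numbers 1 to 3. These 4 were named for the smallest p in the list and do not describe the list as a whole. Interferon-stimulated genes had 16 of 24 lower and 0 higher (median -0.86). Ifit3, an antiviral protein, had 37, 30.4, 74.9 and 71.6 CPM in TGFb libraries, against 259, 311, 263 and 270 CPM in SS libraries (-2.36 ± 0.36, adjusted p = 7.97e-06), and Ifit2, Gbp2 and Ifih1, 2 further antiviral effectors and an RNA sensor, had log2 fold changes of -1.84, -1.46 and -0.94. Complement components had 9 of 13 lower and 0 higher, and without the block 4 lower. Serping1, the C1 inhibitor, had 321, 327, 248 and 274 CPM in TGFb libraries, against 715, 747, 599 and 565 CPM in SS libraries, and was lower (-1.16 ± 0.11), as were the proteases C1ra and C1s1 (-1.63 and -2.01), C1s1 having an adjusted p of 0.0612 without the block.

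**Figure D3:**
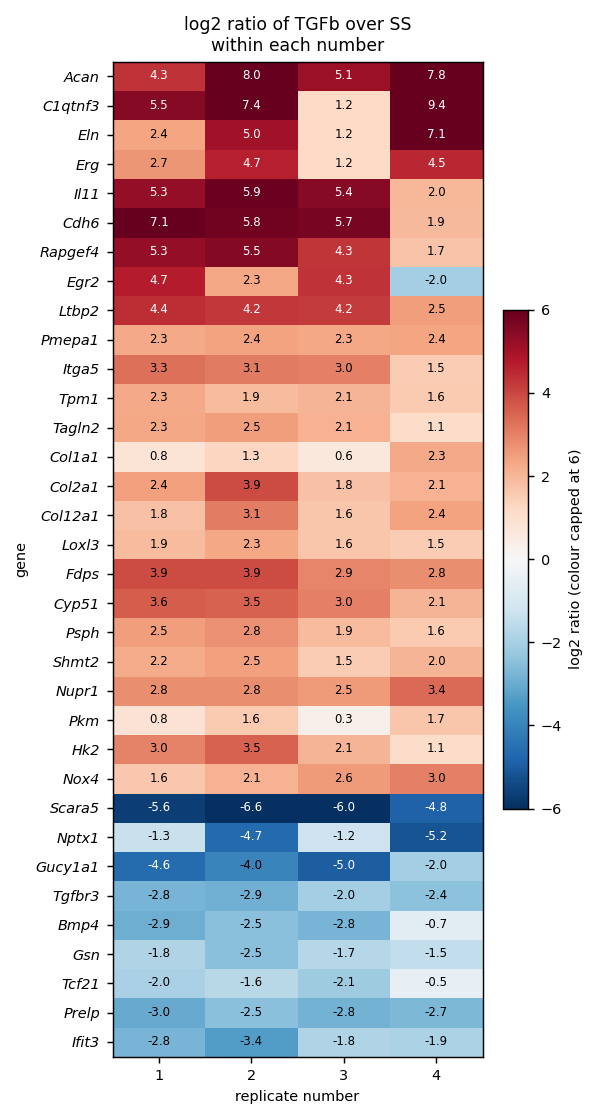
Log2 ratio of TGFb over SS within replicate numbers 1 to 4 for genes of the lists described, chosen after their values were seen; red is higher with TGFb and blue lower. Pmepa1 is nearly even across numbers (2.29 to 2.42), Eln and Erg are highest in numbers 2 and 4, and Il11, Cdh6 and Itga5 are lowest in number 4.

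The response was set against that of LacZ cells with a test of the difference itself. At an adjusted p under 0.05 edgeR called 0 of 16760 genes (0%) in which the TGFb response of iCre cells differed from that of LacZ cells, with 443 genes (2.64%) at an unadjusted p under 0.05. DESeq2 called 0 as well, with 651 genes at an unadjusted p under 0.05. A block for each number within each treatment, added after the data were seen, gave 0 calls and 763 genes at an unadjusted p under 0.05. Of the 8651 genes called in iCre cells, 6356 (73.5%) had a 95% interval of the difference within 2-fold either way, so larger differences in the other genes cannot be told from the spread. Across all 16760 genes the log2 fold changes in iCre and LacZ cells correlated at Pearson r = 0.909, as a description over genes that share numbers and are not independent. The correlation does not measure whether the responses are equal in size, which was not tested over genes as a set. By list, the median difference was 0.35 for interferon-stimulated genes, which fell, and -0.16 for cholesterol genes, which rose, so both responses were smaller in iCre cells. For contractile genes, which rose, it was 0.20, the opposite. Among the genes called in iCre cells, 99.6% had the same sign in LacZ cells, against 90.7% of all 16760 genes. For the leading genes the difference was -0.18 for Pmepa1 (95% interval -0.58 to 0.22), 0.24 for Col1a1 (-0.55 to 1.03) and 0.03 for Fdps (-0.63 to 0.68).

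**Figure D4:**
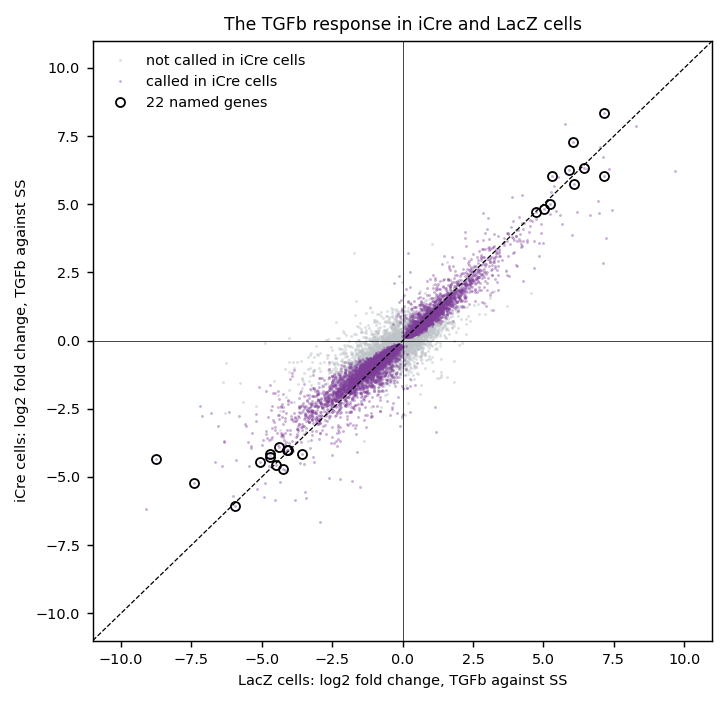
Log2 fold change of TGFb against SS in iCre cells (vertical) and LacZ cells (horizontal) for 16760 tested genes, with the genes called in iCre cells in purple, 22 of the named genes circled and the line of equal response dashed. The points lie along the line (Pearson r = 0.909), and 0 genes passed the test of the difference.

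Against IL-1b in iCre cells, 3827 genes (22.8%) were higher and 3585 (21.4%) lower with TGFb, together 44.2%. At least 2-fold, 998 (5.95%) were higher and 1638 (9.77%) lower. The TGFb libraries stand in all 3 iCre comparisons, so these are not independent of the one with SS. The 5 largest rises over IL-1b were Acan (8.63), C1qtnf3 (8.27), Fgf21 (7.51), Cilp, a cartilage matrix protein also made by fibroblasts (6.82), and Eln (6.54). Eln averaged 8666 ± 8781 CPM with TGFb and 69.8 ± 33.4 CPM with IL-1b (SD, n = 4 each). The 5 largest differences in the other direction were inflammatory: Nos2, the inducible nitric oxide synthase, averaged 0.459 ± 0.0806 CPM with TGFb and 276 ± 50.9 CPM with IL-1b (-9.22 ± 0.19), and Saa3, an acute-phase protein (-9.17), the chemokines Cxcl1 (-9.08) and Cxcl5 (-9.01) and the pantetheinase Vnn3 (-8.74) followed. By list, TGFb exceeded IL-1b in 18 of 20 contractile genes, 23 of 24 cholesterol genes and 17 of 20 serine and one-carbon genes, and was below it in 23 of 27 cytokine genes and 24 of 24 interferon-stimulated genes. Of 22 glycolysis genes 1 was higher and 8 lower than with IL-1b, and Pkm averaged 1107 ± 181 CPM with TGFb and 1392 ± 349 CPM with IL-1b (log2 fold change -0.28, adjusted p = 0.241). Without number 4 the Pkm value was -0.58 (adjusted p = 0.00804), without its TGFb library alone -0.48 (adjusted p = 0.0421), and with total counts it was -0.44 (adjusted p = 0.0454).

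Against bFGF in iCre cells, 3763 genes (22.5%) were higher and 3648 (21.8%) lower with TGFb, together 44.2%. At least 2-fold, 823 (4.91%) were higher and 1684 (10%) lower. The largest rises were C1qtnf3 (7.50), Acan (7.36), Cilp (6.95), Crabp2 (6.21) and Ccl17 (5.88), and the largest falls Nptx1 (-5.61), Scara5 (-5.41), Ackr4, a scavenging chemokine receptor (-5.26), Galnt15 (-5.13) and Upp1, uridine phosphorylase (-4.68). Cell cycle genes set these stimuli apart: 26 of 30 were lower with TGFb than with bFGF and 1 higher (median -1.80), whereas against SS 5 were lower and 4 higher. ERK feedback and immediate early genes were lower in 12 of 16 and higher in 1. TGFb exceeded bFGF in 15 of 20 contractile genes, 24 of 24 cholesterol genes, 21 of 25 ATF4 and unfolded protein response genes and 12 of 22 glycolysis genes. Pkm averaged 780 ± 147 CPM with bFGF, below its level with TGFb (log2 fold change 0.55 ± 0.19, adjusted p = 0.0218). This call was lost without the block (adjusted p = 0.0911), with total counts (0.34, adjusted p = 0.118) and without the TGFb library of number 2 or 4 or the bFGF library of number 1 or 4 (adjusted p = 0.06, 0.143, 0.0709 and 0.063).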

How the data were processed

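RNA was taken from cultured cells after 24 h of treatment, and poly(A) libraries were sequenced, per the labels' protocols. The deposited table holds counts per Ensembl gene, which the authors made with HTSeq 0.10.0 after FastQC 0.10.1 on mm10, per the submitters' processing notes; the aligner, annotation and strand setting were not given in the sources used here, so overlapping and antisense genes cannot be told apart. Symbols and coordinates came from GENCODE on GRCm38 and matched 52133 of 55414 identifiers, with 99.8% of counts. Totals ran from 20736203 to 34995038 counts over the 32 libraries.

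The 32 libraries were fitted together in edgeR 4.0.16 (R 4.3.3) with TMM scaling, a filter on low counts, a term for each of the 8 groups and a block for the replicate number, and quasi-likelihood tests were adjusted by Benjamini and Hochberg over 16760 genes. Pairing by number was taken from the data: over all 32 same-numbered pairs the deviations from group means correlated at 0.228 to 0.883, each above the minimum of 0.1 that was set. That minimum does not require a higher correlation than with other numbers. The iCre TGFb library of number 1 correlated at 0.545 with its LacZ TGFb counterpart and at 0.604 with one of another number. Standard errors are the log2 fold change over the root of its F statistic, and ratios within a number used a pseudocount of 0.1 CPM. No 2 libraries agreed within sampling noise (lowest chi-square per degree of freedom 11.9). On simulated counts for 16564 genes of the TGFb against SS comparison, 43.3%, 91% and 100% of genes changed 1.5-fold, 2-fold and 4-fold were called, and 7 of 163 calls fell on unchanged genes. The simulation changed only 67, 67 and 66 genes by these folds, whereas 8651 genes were called in the data. The adjustment for many tests was therefore stricter in the simulation, and its rates do not carry over to these data.

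Named genes were the 12 largest rises and 12 largest falls that passed at 0.05, had separate groups and reached a mean log2 CPM of 1, the 5 largest each way against IL-1b and bFGF, the 4 members of each list with the smallest p, Pkm and Map3k7, and markers of other cell types; predicted genes and pseudogenes were left out, and a few genes that the rule picks are not reported here. The comparison, the gene lists and the rule were chosen with earlier results of these data known. The alternatives were no block, total-count scaling, DESeq2 1.42.0, other filters, fits of the compared groups alone, and leaving out libraries or numbers.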

Additional observations from a re-analysis of the deposited data

Results flagged for a closer look

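In 44 of 316 groups of 4 libraries (13.9%) 1 library stood far from the other 3 in the level of a named gene, by Dixon's ratio of the gap to the range at its 95% critical value, which chance passes in about 1 in 20 groups. The library of number 4 was the distant one in 26 TGFb groups and 11 SS groups. Levels are CPM, and genes share libraries, so these are not independent. In the TGFb library of number 4, Smad3 at 100, C1qtnf3 at 1836, Slc10a6 at 0.382, Ltbp2 at 3317, Thbs1 at 10350, Tgfbr3 at 61.2, Bmp2 at 5.32, Id2 at 22, Myh11 at 18.6, Tead2 at 75.5, Glul at 67.3, Acaa2 at 45, Pdgfra at 525, Fgf7 at 66.6, Wnt9a at 33.6 and Scx at 15 CPM lay above the other 3. In the same library Fgf21 at 3.15, Cdh6 at 1.47, Tgfb1 at 55.5, Skil at 94.1, Actn1 at 1250, Loxl3 at 288, Prelp at 46.1, Postn at 2173, Itga5 at 384 and Mcam at 24.5 CPM lay below them. In the SS library of number 4, Ptgs2 at 38.1, Ltbp2 at 587, Bmp2 at 36.6, Tpm1 at 851, Palld at 414, Nsdhl at 22.7, Pdgfc at 13.1 and Fgf7 at 169 CPM lay above the other 3, and Col3a1 at 8695, Lpl at 76.8 and S100b at 1.7 CPM below them. The others were Cspg4 at 218 and Npr2 at 115 CPM in the TGFb library of number 2, Vwf at 0.854 CPM in the TGFb library of number 3, Scara5 at 134, Lum at 252 and Notch1 at 64.4 CPM in the SS library of number 2 and Rapgef4 at 0.703 CPM in the SS library of number 3.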

How the results depend on the processing

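Scaling by total counts gave 2512 higher genes against SS, 2329 against IL-1b and 1983 against bFGF, and 5621 lower against bFGF. Fits of the compared groups alone without the block gave 2606 higher and 2146 lower against SS, 1912 and 1989 against IL-1b, and 1259 and 1407 against bFGF, and the bFGF fit of those groups with the block gave 2436 higher. Leaving out number 1, an alternative chosen after seeing the data, gave 2481 higher against IL-1b and 2368 against bFGF. Without the replicate block 3378 genes were higher and 3039 lower against SS, and 2390 were lower against bFGF. In that fit 16 of the 158 genes named for the comparison with SS lost their call and 0 changed sign. In the edgeR fit of the compared groups alone without the block, 26 of the 158 lost it. Among them were Fgf7 (adjusted p = 0.135), Tgfbr3 (0.0857), Tgfbr2 (0.0732), Pdgfra (0.0611), Cd36 (0.0588), Upk3b (0.0574), Palld (0.0532) and Tcf21 (0.0505). The cause of these shifts was not tested. With 1 library left out, the counts ran from 3513 to 4277 higher and 3901 to 4466 lower against SS, 3065 to 3965 and 3091 to 3575 against IL-1b, and 3147 to 3783 and 3065 to 3665 against bFGF, Pkm from 0.91 to 1.28 and Map3k7 from 0.08 to 0.18. The difference between iCre and LacZ cells had 0 calls in each alternative run. Map3k7 was -0.09 with total counts and 0.18 without number 4 (adjusted p = 0.0348). Fn1 ran from 0 (without the TGFb library of number 2) to 0.33 (without that of number 1). Most 1.5-fold changes were missed in the simulation, but it changed far fewer genes than were called here, so that rate does not apply to these data. A gene that did not pass may still differ. DESeq2 kept the call and direction of the 158 named genes.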

Other observations

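Of 26 growth factor genes 8 were higher and 10 lower, against 25.1% and 26.5% of all genes, and without the block 5 were higher and 3 lower. Pdgfc, a ligand of the PDGF receptor alpha, had 101, 97.4, 81.6 and 74.5 CPM in TGFb libraries, against 5.46, 5.78, 4.55 and 13.1 CPM in SS libraries (13.8-fold, adjusted p = 9.05e-11 in edgeR). Vegfa, the main angiogenic factor, was 3.1-fold higher and Igfbp2, an IGF binding protein, 11.9-fold. Fgf7, keratinocyte growth factor, was lower (-1.62 ± 0.22), with number 4 high in both groups. Of 25 Wnt and Notch genes 5 were higher and 10 lower, among them the ligand Wnt9a (3.12-fold higher) and the receptors Fzd1 (-1.11 ± 0.16) and Notch1 (-0.90 ± 0.17).

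Of 14 transcription factors of cartilage, tendon and bone 6 were higher and 1 lower, and with total counts 3 and 2. Scx, the tendon factor scleraxis, had 5.59, 5.91, 6.8 and 15 CPM in TGFb libraries, against 0.364, 0.522, 1.22 and 1.98 CPM in SS libraries (8.39-fold, adjusted p = 3.09e-06 in edgeR). Runx1, a Runt factor, was 4.48-fold higher and Sox5, a cartilage factor, lower (-1.17 ± 0.16). Egr2, a zinc finger factor of the immediate early class, had 47.5, 27.9, 49.2 and 3.25 CPM in TGFb libraries, against 1.74, 5.52, 2.33 and 13.5 CPM in SS libraries. It was higher in numbers 1 to 3 and lower in number 4.

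Of 19 genes of NADPH oxidases, superoxide and NRF2, 5 were higher and 3 lower, against 25.1% and 26.5% of all genes. Nox4, an oxidase that makes hydrogen peroxide, had 69.7, 62, 79 and 77.7 CPM in TGFb libraries, against 22.4, 14.7, 13.2 and 9.58 CPM in SS libraries (4.87-fold, adjusted p = 1.32e-06 in edgeR). Cat, catalase, was lower (-0.69 ± 0.09). Of 13 genes of angiotensin, endothelin and natriuretic peptides 7 were lower and 0 higher, with Agt, angiotensinogen (-1.86 ± 0.37), and the natriuretic peptide receptors Npr1 (-2.34 ± 0.32) and Npr2 (-0.68 ± 0.07). Of 18 p53 targets and kinase inhibitors 6 were higher and 5 lower, against 25.1% and 26.5% of all genes. They were led by the kinase Plk2 (4.73-fold) and the stress gene Gadd45b (4.22-fold). Without the block the counts were 4 and 3. Of 30 cell cycle genes 4 were higher and 5 lower, against 25.1% and 26.5% of all genes. Tyms, thymidylate synthase, was 2.68-fold higher. Without the block the counts were 2 and 2.

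Txnip, which encodes a protein that binds thioredoxin and restrains glucose uptake, was chosen after its values were seen. It had 185, 149, 167 and 221 CPM in iCre TGFb libraries, against 312, 401, 222 and 345 CPM in iCre SS libraries, and 132, 128, 131 and 131 CPM in LacZ TGFb libraries, against 576, 551, 401 and 424 CPM in LacZ SS libraries. Its response in iCre cells minus that in LacZ cells was 1.07 ± 0.30 on the log2 scale (95% interval 0.45 to 1.70). The difference did not pass in the main edgeR fit, from which these values come. With the block for each number within each treatment, added after the data were seen, Txnip had the lowest adjusted p of all genes, 0.0884, and did not pass either.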
